A study of Saccharomyces cerevisiae with 12 samples.

Results

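The response of bmh1∆ cells to potassium starvation was followed in 6 libraries, 3 from cells without KCl and 3 from cells at 50 mM KCl, out of 12 libraries in the series. They were chosen by the strain and the KCl concentration in their labels. The cells were haploid Saccharomyces cerevisiae of the BY4741 background (MATa, with his3, leu2, met15 and ura3 mutations) in which BMH1 was deleted, so both groups lack this gene and no library of undeleted cells was used here. Cultures grown at 50 mM KCl were washed and incubated for 60 min at 30 °C either in medium lacking KCl (0 mM, the starved cells) or in fresh medium with 50 mM KCl, so the cells at 50 mM KCl had been washed and transferred as well. The other 6 libraries of the series come from bmh2∆ cells treated the same way and serve only for comparison. RNA levels were measured by SAGE-tag sequencing, in which a short tag beside the last CATG site of each polyadenylated RNA is read. They are given for 6053 genes as RPM, the reads of a gene scaled to the same total in every library. A gene was tested if it reached 3 RPM in 3 or more of the 6 libraries, which 5184 genes did.

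BMH1 and BMH2 encode the yeast 14-3-3 proteins, dimeric adaptors that bind phosphorylated proteins and take part in nutrient signalling, stress responses and the cell cycle. Potassium is the main cation inside yeast cells and balances the charge of phosphate and polyphosphate, and its uptake through Trk1 is driven by the membrane potential that the proton pump Pma1 builds up. Phosphate uptake is governed by the PHO pathway: when phosphate is scarce, the cyclin-dependent kinase complex Pho80-Pho85 is inhibited, the transcription factor Pho4 enters the nucleus and the genes for phosphate transport, phosphatases and polyphosphate synthesis are transcribed.

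The column names fall into 2 sets, 1 named by lane 1 and an index and 1 by a letter and a tube number, and carry no replicate number. They do not name a sequencing run. The lane 1 set held 4 of the bmh1∆ libraries, and short names are used here that are no replicate numbers. The starved library S1 has the index GTCACG. The starved library S2 has the index TGCACT. The library C1, at 50 mM KCl, has the index GGATAT. The library C2, at 50 mM KCl, has the index CTATAG. B0 (0 mM) and B50 (50 mM) are named by a letter like all bmh2∆ libraries and came from 2 lanes, B0 from 6 and B50 from 7. In this pair the lane and the KCl concentration cannot be told apart, and a term for the set of libraries does not remove the lane. All values are whole multiples of a smallest step, and the smallest value above 0 is 2 steps in every library, so that a listed 0 may stand for 1 step. If this step is 1 read, S1 and B0 hold 73863623 and 107579363 reads, S2 holds 13437133, and the 50 mM libraries hold 6237952 to 19334173. In B0 none of the 6053 genes lay below the summed reads of the 7 other lettered libraries, and in S1 1 gene (RPP1B) lay below the sum of the 3 other lane 1 libraries. The other bmh1∆ libraries were scaled to the depth of the deep library of their set. Their sums left out S1, B0 and the library itself, so they held fewer libraries, 2 in lane 1 and 6 for B50. Below these smaller sums lay 4.92% to 43% of genes. The log2 values of B0 correlated at 0.953 to 0.977 with those of the bmh2∆ libraries and at 0.911 with B50, and those of S1 correlated at 0.946 and 0.945 with C1 and C2 and at 0.938 with S2. These are correlations across genes, which are not independent. The 7 other lettered libraries summed to 80555864 reads, against 107579363 in B0. The 3 other lane 1 libraries summed to 44965676 reads, against 73863623 in S1. The column names of S1 and B0 read "trimmed..." where those of all other libraries read "trimmed", and what the dots stand for is not stated. Whether B0 and S1 include reads of the other libraries was not tested beyond this, and results are therefore given also without them. If B0 and S1 include such reads, the 6 libraries are not independent measurements. Each SD, SE and p-value that uses S1 or B0 takes them as independent.

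The labels and marker genes were checked in every library. BMH2 was present in all 6 libraries, at 372, 454 and 197 RPM in S1, S2 and B0 against 275, 363 and 505 RPM in C1, C2 and B50, and at 0 to 0.291 RPM in bmh2∆ cells. BMH1 RNA was counted at 1972, 1757 and 4170 RPM in S1, S2 and B0, against 1466, 2189 and 536 RPM in C1, C2 and B50. The study places the BMH1 tags of this strain downstream of the open reading frame, so that this count does not check the deletion. B0 was close to the 4048 to 5391 RPM of the bmh2∆ libraries and its BMH2 level was the lowest of the bmh1∆ libraries. URA3 was at most 0.328 RPM, MFA1 was at least 1779 RPM and MF(ALPHA)1 was at most 3.50 RPM, as in MATa cells with a deleted URA3, while HIS3 was at 2.21 to 20.2 RPM. Other marker genes of the mating types were less clear. Of the α-cell genes, STE3 was at 2.78 to 6.09 RPM and SAG1 at 16.65 to 28.2 RPM. The a-cell gene STE2 was at 486 to 1518 RPM, but in B50 MFA2 and ASG7 were at 7.21 and 10.7 RPM, below SAG1 at 17.5 RPM. In cultures measured in bulk, a change in the share of cells in a state and a change in RNA per cell cannot be told apart. In the R64 reference, the last CATG of the BMH1 coding sequence and the first CATG after its stop codon start the tags given here, with CATG in capitals, because the first lies inside and the other outside the deleted gene.
BMH1, coding sequence, chromosome V, 546318 to 546338, plus strand: CATGtccgagtccggtcaagc
BMH1, after the stop codon, chromosome V, 546537 to 546557, plus strand: CATGtgcatgtacacacgtaa

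Potassium starvation raised the RNA of 153 of the 5184 genes tested in bmh1∆ cells (2.95%) and lowered that of 1 gene (0.0193%, together 2.97%), by limma with an adjusted p under 0.05 and the set of libraries (lane 1 or lettered) as a term in the fit. The genes that rose most encode the phosphate transporter Pho84 and Spl2, a small protein of phosphate uptake, and further large rises were those of the genes for Rtc3, Yro2, the pheromone-induced Prm3 and the hexose transporter Hxt4. The rises were between 1.20 and 6.17 on the log2(RPM + 1) scale, with a median of 1.84, beside a median of 0.14 over all genes tested. Each of the 153 genes was higher at 0 mM KCl both within lane 1 and between B0 and B50, whereas over all genes 2048 were higher in both sets (39.5%), 1148 lower in both (22.1%) and the rest differed in sign. The fit that chose the 153 genes from these libraries favours changes alike in both sets, so this agreement is no separate support. The 3 libraries at 0 mM KCl lay above the 3 at 50 mM KCl for 129 of the 153 genes, beside 471 of all genes (9.09%), while 166 genes (3.20%) lay wholly below. Both counts of higher genes include genes below 3 RPM in all 50 mM libraries, which the filter admits only without overlap. The fit also favours genes with such separation. S2 had the highest level of the 6 libraries for 108 of the 153 genes, B0 for 39 and S1 for 6, and S2 was above S1 for 130. B50, the library with the fewest reads, had the lowest level of the 6 for 89 of the 153. Its log2 values over all tested genes correlated at 0.688 with C1 and 0.64 with C2. The median change of these genes from the 50 mM libraries of the same set was 1.51 in S1, 2.11 in S2 and 2.01 in B0.

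**Figure D1:**
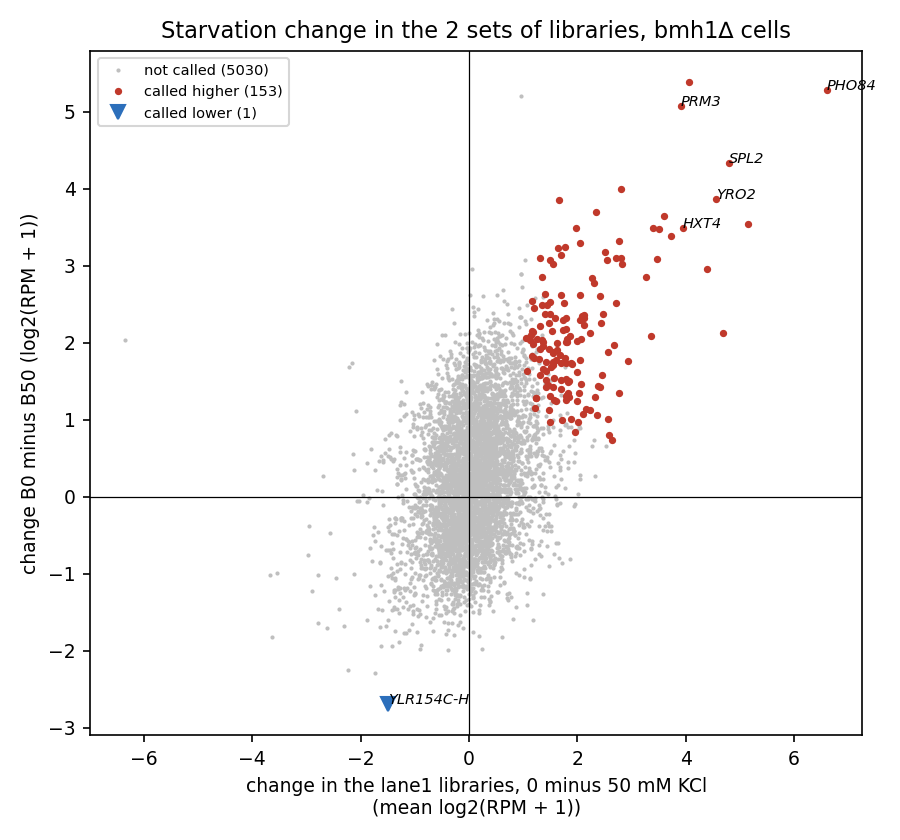
Change in RNA level at 0 minus 50 mM KCl on the log2(RPM + 1) scale, in the lane 1 libraries (horizontal) and between B0 and B50 (vertical), with 1 point per tested gene. The 153 genes called higher (red) lie right of and above 0 and PHO84 lies furthest right, while the uncalled genes (grey) spread over all 4 quadrants.

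The number of calls depended strongly on the libraries and on the set term. Without the set term limma called 2 genes higher (PHO84 and SPL2) and 0 lower, with 275 genes at an unadjusted p under 0.05, against 980 with it. With all 12 libraries in the fit it called 375 higher and 59 lower with the set term, including 150 of the 153, and 50 higher without it. Leaving out C1 left 48 genes higher, leaving out C2 left 35, and leaving out B50 or B0, which leaves lane 1 alone, left 13. Without S1, 391 were higher and 160 lower. From S2 alone against C1 and C2, where 1 library stands for the starved cells and the spread is mostly borrowed from other genes, 319 were higher and 310 lower, including 140 of the 153. When the reads of the other libraries of the set were subtracted from S1 and B0, 65 genes were higher and 12 lower, and all of these 65 were among the 153. Scaling moved the split of higher and lower calls to 156 and 78 under quantile normalization and to 119 and 23 under median-of-ratios scaling, where the median of all genes was -0.03 and -0.04. Of the 153 genes, each kept its sign in every alternative, and 2 were called in every alternative with a test. The alternatives reuse the libraries that chose these genes, so the kept signs are no separate support. Since the labels do not say whether the libraries of a group came from separate cultures, p-values measure only the spread between these libraries.

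The largest change was that of PHO84 (YML123C, chromosome XIII, 24037 to 25800, minus strand, R64), which encodes the phosphate transporter of high affinity. PHO84 RNA was at 226, 391 and 113 RPM in S1, S2 and B0, against 1.03, 3.61 and 1.92 RPM in C1, C2 and B50. Every starved library lay far above every library at 50 mM KCl, and the spread within either group was small beside the gap. The means were 243 ± 139.6 RPM at 0 mM and 2.19 ± 1.31 RPM at 50 mM KCl (SD, n = 3 libraries each). The 3 libraries at 0 mM include S1 and B0, for which reads of other libraries were not excluded. The change was 6.17 ± 0.42 (SE) on the log2(RPM + 1) scale (limma, adjusted p = 0.000158), and it was 6.61 within lane 1 and 5.29 between B0 and B50. An exact two-sided permutation test of 3 against 3 libraries gave p = 0.1, the smallest p it allows. The alternatives gave 4.96 to 7.0, with the call kept in each.

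SPL2 (YHR136C), which encodes a small protein that lowers low-affinity phosphate uptake when phosphate is scarce, changed in the same way. Its RNA was at 73.8, 134 and 77.6 RPM in S1, S2 and B0, against 2.48, 2.71 and 2.89 RPM in C1, C2 and B50. The 50 mM libraries were nearly equal and all below 3 RPM, so SPL2 passed the filter only through the starved libraries. That no library of one group reached the other was thus fixed by the filter. The change was 4.65 ± 0.32 (SE) on the log2(RPM + 1) scale (limma, adjusted p = 0.000158), 4.80 within lane 1 and 4.34 between B0 and B50. The exact permutation p was again 0.1, which the filter fixed as well. SPL2 kept its call in each alternative with a test.

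The promoters of both genes hold CACGTG, the core of the sites that Pho4 binds. In the 600 bases before the annotated start codon, PHO84 has CACGTG at -436 and -414, counted from the A of the start codon, and SPL2 has it at -361, -147, -90 and -31. The study holds an ATG farther downstream to be the more likely start codon of SPL2, from which these sites would lie farther away. The windows shown are given because they carry the sites farthest from the start codons, with CACGTG in capitals, from the R64 reference.
PHO84, chromosome XIII, 26201 to 26400, minus strand, -600 to -401: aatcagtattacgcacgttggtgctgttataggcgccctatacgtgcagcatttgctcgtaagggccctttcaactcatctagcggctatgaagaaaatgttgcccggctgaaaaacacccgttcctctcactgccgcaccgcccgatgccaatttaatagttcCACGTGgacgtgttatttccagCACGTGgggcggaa
SPL2, chromosome VIII, 375221 to 375470, minus strand, -370 to -121: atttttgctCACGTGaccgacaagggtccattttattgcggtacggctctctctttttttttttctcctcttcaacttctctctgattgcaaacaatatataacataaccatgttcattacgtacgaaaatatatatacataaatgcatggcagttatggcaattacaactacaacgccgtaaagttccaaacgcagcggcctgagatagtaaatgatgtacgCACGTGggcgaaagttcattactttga

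Tags from the last CATG of the coding sequences of PHO84 and SPL2, with CATG in capitals, start 12 and 5 bases before the end of these sequences. They are shown because RNA levels here are counts of tags beside a CATG site. Whether they are the tags counted was not checked, as a CATG after the stop codon would give another tag.
PHO84, chromosome XIII, 24028 to 24048, minus strand: CATGaagcataaaagcctcaa
SPL2, chromosome VIII, 374638 to 374658, minus strand: CATGattgcatctcttaatcg

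Of 19 tested PHO genes, 9 rose and none fell, and the median change of the list was 1.12 beside 0.14 over all genes tested. The list is the one the study took from earlier work on phosphate starvation, and it was chosen here with results of these libraries known. Besides PHO84 and SPL2, these were VTC3 and VTC4 (subunits of the polyphosphate polymerase of the vacuole), PHO5 and PHO11 (secreted acid phosphatases), PHO8 (vacuolar alkaline phosphatase), PHM8 (a phosphatase of lysophosphatidic acid and nucleotides) and PHM6. VTC3 was at 176, 225 and 62.6 RPM in S1, S2 and B0, against 21.4, 41.2 and 10.1 RPM in C1, C2 and B50, a change of 2.64 ± 0.32 (SE; limma, adjusted p = 0.00336). PHO8 was at 69.8, 42.9 and 64.7 RPM in S1, S2 and B0, against 14.6, 9.51 and 12.2 RPM in C1, C2 and B50. For both genes the groups did not overlap, but S2 was the highest library for VTC3 and the lowest starved library for PHO8. PHM6 changed by 2.21 ± 0.29 (SE; limma, adjusted p = 0.00466), with 9.89 to 30.6 RPM at 0 mM against 1.12 to 5.69 RPM at 50 mM KCl.

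The levels of the acid phosphatase genes differed between the 2 sets of libraries. PHO5 was at 68.3, 134 and 7.45 RPM in S1, S2 and B0, against 16.8, 14.0 and 1.28 RPM in C1, C2 and B50. Its B0 level lay below both 50 mM libraries of lane 1, so that the groups overlapped, although the change within either set was upward (2.34 ± 0.34 SE overall; limma, adjusted p = 0.00705). PHO11 behaved alike, with 100.3, 137 and 5.87 RPM in S1, S2 and B0, against 29.8, 38.2 and 0.962 RPM in C1, C2 and B50. PHO11 has a near-identical copy, PHO12, and the split of tags between these genes is uncertain. VTC4 rose by 1.46 ± 0.33 (SE; limma, adjusted p = 0.0455) and PHM8 by 1.63 ± 0.37 (SE; limma, adjusted p = 0.0491), both with overlap between the groups.

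The remaining 10 tested genes of the list did not pass. GDE1, a glycerophosphocholine phosphodiesterase, was at 51.4, 37.0 and 66.0 RPM in S1, S2 and B0, against 19.97, 27.6 and 20.9 RPM at 50 mM KCl in C1, B50 and C2. Its groups did not overlap, with a change of 1.12 ± 0.28 (SE; limma, adjusted p = 0.0645). VTC1 and VTC2, further subunits of the polyphosphate polymerase, had values of 1.08 and 1.07. PHO81, the inhibitor of Pho80-Pho85, had 1.01, and PHO89, a sodium-dependent phosphate transporter, 0.45. Of the 9 genes of the list that rose, 2 were still called with lane 1 alone or without the set term (PHO84 and SPL2). Of all genes, 13 were called higher with lane 1 alone and 2 without the set term. After subtraction of the other libraries' reads 6 members of the list were called, beside 65 of all genes called higher.

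**Figure D2:**
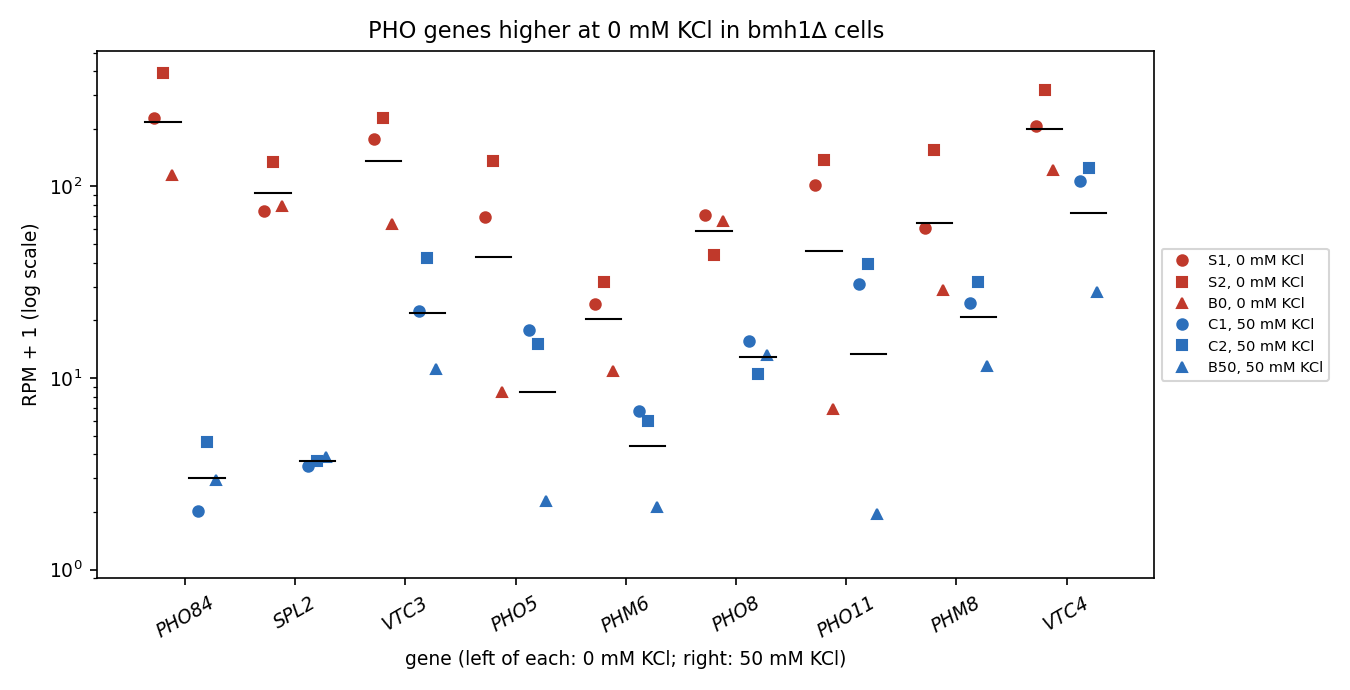
RNA levels (RPM + 1, log scale) of the 9 PHO genes that rose, with the libraries at 0 mM KCl (red) left of those at 50 mM KCl (blue), 1 point per library and a line at the geometric mean. PHO84 and SPL2 show a wide gap between the groups, whereas B0 and B50 (triangles) lie far below the lane 1 libraries for PHO5 and PHO11.

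Among the 9 PHO genes that rose, 8 held CACGTG in the 600 bases before the start codon, and so did 7 of 9 tested members that did not pass and matched the reference. Over all 6021 protein-coding genes of R64 this share was 7.21%, and over the genes that rose it was 12.1% of 149 matched to the reference. Both strands are covered, as CACGTG is its own reverse complement. The windows can reach into a neighbouring gene. PHM8 had no CACGTG in this window. The sites nearest to the start codon are shown for 6 of these genes, because the genes share this hexamer in different flanks, with CACGTG in capitals.
VTC3, chromosome XVI, 517312 to 517341, minus strand: tgcagtcgcaagCACGTGcatgcgattttg
PHM6, chromosome IV, 1022583 to 1022612, minus strand: gagcttcgctgaCACGTGggaggtgggata
PHO8, chromosome IV, 1420767 to 1420796, minus strand: tctacgtcgggcCACGTGcagcgatcactt
PHO5, chromosome II, 431187 to 431216, minus strand: ccttggcactcaCACGTGggactagcacag
PHO11, chromosome I, 225165 to 225194, plus strand: tcttggcgttcaCACGTGggtttaaaaagg
VTC4, chromosome X, 413495 to 413524, minus strand: CACGTGgctgcaCACGTGaatgaaaaagaa

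Of the genes that signal phosphate to Pho4 and of the low-affinity phosphate transporters, none of 13 tested passed, and their median was 0.26. PHO4 itself was at 5.65, 1.49 and 45.6 RPM in S1, S2 and B0, against 1.45, 0.820 and 41.8 RPM in C1, C2 and B50, so that its level followed the set of libraries more than the KCl concentration. PHO87 and PHO90, the low-affinity phosphate transporters of the plasma membrane, had values of 1.04 and 0.01. MIR1, the mitochondrial phosphate carrier and no member of these lists, was chosen after its values were seen. It rose by 1.62 ± 0.34 (SE; limma, adjusted p = 0.0379), with 193, 188 and 270 RPM in S1, S2 and B0, against 94.2, 76.2 and 45.5 RPM in C1, C2 and B50.

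Of the genes of potassium transport and its regulation none of 12 tested passed, and their changes lay between -0.64 and 0.66 with a median of -0.12. TRK1, the main potassium transporter, was at 57.1, 48.15 and 46.1 RPM in S1, S2 and B0, against 52.3, 50.3 and 39.0 RPM in C1, C2 and B50, a change of 0.10 (limma, adjusted p = 0.867). HAL5, a kinase that stabilizes Trk1, had 0.50, and SAT4 (HAL4), a kinase with the same role, -0.17. PRM6, which takes part in potassium influx and is also induced by pheromone, was chosen after its values were seen. PRM6 was at 7.62, 11.3 and 22.8 RPM in S1, S2 and B0, against 0.466, 0.492 and 0.481 RPM in C1, C2 and B50. The 50 mM libraries were nearly equal and below 1 RPM. For a gene this low at 50 mM KCl the filter of 3 RPM required all starved libraries to lie above them. The change was 3.20 ± 0.34 (SE; limma, adjusted p = 0.0018).

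Among the plasma membrane proton and sodium pumps and their partners, 3 of 11 tested genes rose and the median was 0.62. YRO2, a membrane protein related to Hsp30, was at 1319, 3637 and 239 RPM in S1, S2 and B0, against 79.8, 105.5 and 15.4 RPM in C1, C2 and B50. HSP30, a stress-induced negative regulator of the proton pump Pma1, was at 96.9, 232 and 127 RPM in S1, S2 and B0, against 5.02, 4.76 and 28.2 RPM in C1, C2 and B50. S2 held the highest level of both genes and the groups did not overlap. The changes were 4.33 ± 0.41 for YRO2 (SE; limma, adjusted p = 0.000785) and 3.83 ± 0.53 for HSP30 (SE; limma, adjusted p = 0.00679). PMP1, a small proteolipid bound to the pump, rose by 1.46, with overlap between the groups because B0 was at 49.3 RPM. PMA1 was at 1722, 1990 and 4039 RPM in S1, S2 and B0, against 1709, 592 and 3796 RPM in C1, C2 and B50, and did not pass (0.62; limma, adjusted p = 0.446). ENA2 and ENA5, sodium and lithium pumps with near-identical copies, had values of -0.86 and -0.77.

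By count, more genes rose in the mating list than in any other of the 27 lists. By share it came after the smaller PHO list, where 9 of 19 tested genes rose with a median of 1.12. Of 25 tested genes of pheromone response and a-cell identity, 10 rose and none fell, and the median was 0.98. PRM3, a nuclear envelope protein needed for nuclear fusion, was at 30.7, 56.1 and 32.9 RPM in S1, S2 and B0, against 0.983, 3.03 and 0 RPM in C1, C2 and B50. AGA1, the anchor of the a-agglutinin, was at 501, 770 and 1031 RPM in S1, S2 and B0, against 147, 99.4 and 78.6 RPM in C1, C2 and B50. MFA1, which encodes the a-factor, was the most abundant, with 5264, 4370 and 8066 RPM in S1, S2 and B0, against 1810, 1779 and 2602 RPM in C1, C2 and B50. In none of these 3 genes did the groups overlap. The changes were 4.30 ± 0.41 for PRM3, 2.80 ± 0.38 for AGA1 and 1.49 ± 0.29 for MFA1 (SE; limma, adjusted p = 0.000785, 0.00556 and 0.0282).

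FUS1 and FUS2, which act in cell fusion, rose by 1.60 and 1.44, and PRM1 and PRM2, pheromone-regulated membrane proteins, by 1.36 and 1.92. BAR1, the protease that degrades α-factor, rose by 1.90, ASG7, an a-specific gene, by 1.79, and MFA2, the other a-factor gene, by 1.38. MFA2 was the only one of the 10 in which the groups overlapped. PRM1 was below 3 RPM in all 50 mM libraries, so the filter left no room for overlap in it. The receptor gene STE2 had a value of 0.98 (limma, adjusted p = 0.137) without overlap. FAR1, the inhibitor of the G1 cyclin kinase, had -0.28, and STE12, the transcription factor of the pathway, 0.44. With lane 1 alone 1 member of the list was called (PRM3), beside 13 of all 5184 genes called higher. With all 12 libraries and the set term 13 members were, beside 375 of all genes called higher. After subtraction of the other libraries' reads from S1 and B0 4 members were called, beside 65 of all genes called higher. Without the set term no member was called, beside 2 of all genes.

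**Figure D3:**
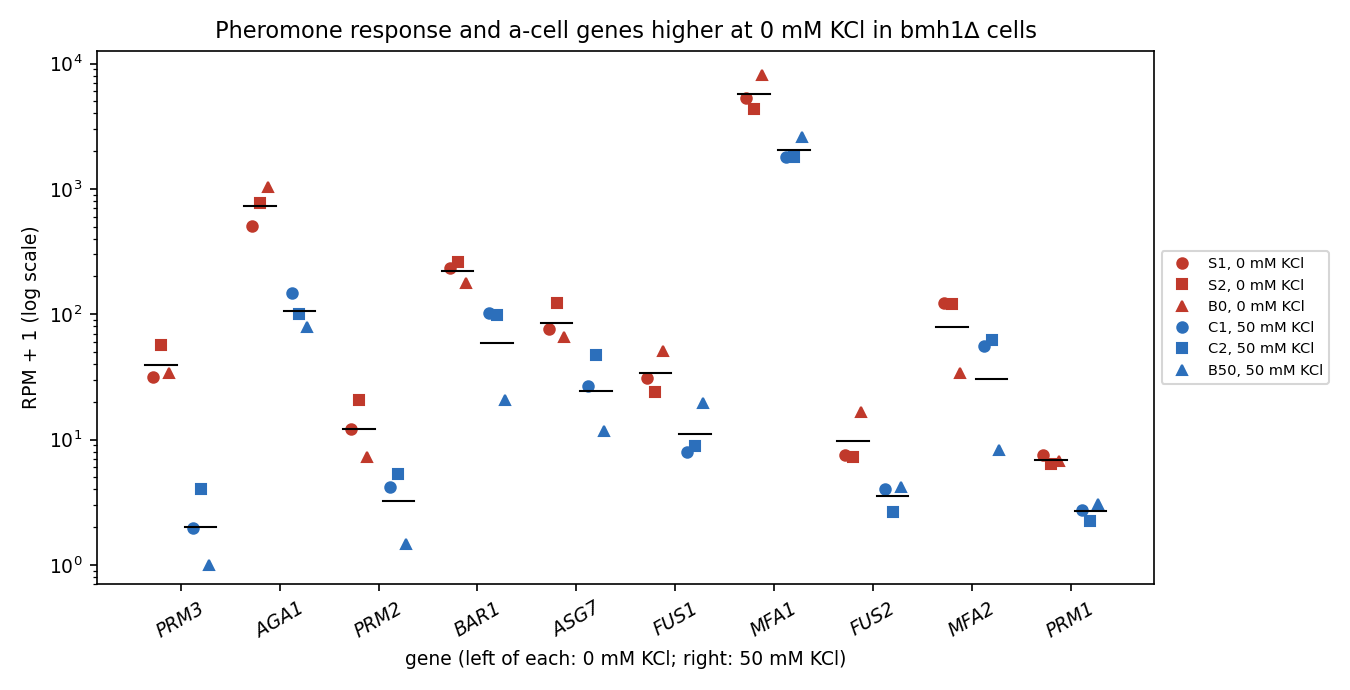
RNA levels (RPM + 1, log scale) of the 10 pheromone response and a-cell genes that rose, with the libraries at 0 mM KCl (red) left of those at 50 mM KCl (blue), 1 point per library and a line at the geometric mean. The groups are separate for all of them except MFA2, for which B0 lies below C1 and C2.

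All 10 of these genes held TGAAACA or its reverse complement TGTTTCA, the element bound by Ste12, in the 600 bases before the start codon, as did 11 of the 15 tested members that did not pass. Over all protein-coding genes of R64 the share was 14.5%, and over all genes that rose it was 16.8%. The element nearest to the start codon is shown in capitals for 3 of the genes, because these genes share the element in different flanks.
PRM3, chromosome XVI, 183220 to 183250, minus strand: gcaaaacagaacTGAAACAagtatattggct
FUS1, chromosome III, 71631 to 71661, plus strand: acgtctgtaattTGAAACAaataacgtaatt
AGA1, chromosome XIV, 703485 to 703515, plus strand: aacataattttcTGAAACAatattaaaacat

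Several genes of sugar uptake and storage rose. Of 14 tested hexose transporters and glucose sensing genes 3 rose (median 0.56), of 16 genes of trehalose and glycogen 4 rose (median 0.93), and of 17 genes of glycolysis and fermentation 2 rose (median 0.45). HXT4, a hexose transporter of high affinity, was at 86.4, 139.8 and 51.8 RPM in S1, S2 and B0, against 8.48, 4.43 and 3.69 RPM in C1, C2 and B50, a change of 3.80 ± 0.34 (SE; limma, adjusted p = 0.000772). HXK1, hexokinase 1, was at 397, 960 and 978 RPM in S1, S2 and B0, against 141, 150.3 and 190.4 RPM in C1, C2 and B50. Neither gene showed overlap between the groups. MTH1, a regulator of hexose transporter genes, rose by 1.92, with B0 at 12.2 RPM below both lane 1 libraries at 50 mM KCl.

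The 4 genes of storage carbohydrates that rose were TSL1 and TPS2, of the trehalose synthase complex (2.26 and 1.71), GPH1, glycogen phosphorylase (2.24), and GLC3, the glycogen branching enzyme (2.18). GLC3 was at 49.5, 80.9 and 78.5 RPM in S1, S2 and B0, against 15.5, 23.0 and 8.02 RPM in C1, C2 and B50. The groups did not overlap for GLC3 and TSL1, and overlapped for GPH1 and TPS2. TDH1, a glyceraldehyde-3-phosphate dehydrogenase, rose by 2.94 ± 0.37, and PDC5, a minor pyruvate decarboxylase, by 2.38 ± 0.29 (SE; limma, adjusted p = 0.00373 and 0.0033). PDC5 was even within the groups, at 92.1, 139.5 and 120 RPM in S1, S2 and B0, against 20.2, 19.8 and 24.4 RPM in C1, C2 and B50. Near-identical TDH copies make the tags of TDH1 less certain.

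Outside the lists, and chosen after their values were seen, genes of the pentose phosphate pathway and of the GABA shunt were also among the 153. NQM1, a transaldolase, rose by 3.43, SOL4, a 6-phosphogluconolactonase, by 2.46, and ZWF1, glucose-6-phosphate dehydrogenase, by 1.65. UGA2, succinate semialdehyde dehydrogenase, rose by 2.73 and GAD1, glutamate decarboxylase, by 1.84. UGA2 was at 92.5, 112 and 184 RPM in S1, S2 and B0, against 15.6, 17.7 and 20.8 RPM in C1, C2 and B50, and lost its call only without the set term. Of 20 tested genes of the tricarboxylic acid cycle 2 rose (median 0.35), CIT3, a mitochondrial citrate and methylcitrate synthase, by 2.95 and MDH2, cytosolic malate dehydrogenase, by 1.85. None of 31 tested genes of the respiratory chain and ATP synthase passed, although their median was 0.63 and 29 had positive changes.

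Of 20 tested heat shock proteins and chaperones 4 rose (median 0.81). HSP82, the inducible Hsp90, was at 619, 858 and 479 RPM in S1, S2 and B0, against 167, 184 and 47.9 RPM in C1, C2 and B50, a change of 2.47 ± 0.35 (SE; limma, adjusted p = 0.00679). HSP42, a small heat shock protein, and SSE2, a nucleotide exchange factor of Hsp70, rose by 2.00 and 1.61, and HSP30, named above, is the fourth. HSP42 overlapped between the groups because B50 was at 149 RPM, above S1 at 100.1 RPM. HSP104, the disaggregase, had a value of 1.41 without overlap (limma, adjusted p = 0.0546), and HSP12, a membrane-stabilizing protein, 0.12.

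Of 21 tested genes of superoxide and peroxide defence 3 rose (median 0.67), each without overlap between the groups. SOD2, mitochondrial superoxide dismutase, was at 153, 180.2 and 149.8 RPM in S1, S2 and B0, against 69.3, 41.7 and 43.0 RPM in C1, C2 and B50. GPX1, a glutathione peroxidase, rose by 1.77 and PRX1, a mitochondrial peroxiredoxin, by 1.57. The cell wall list had 2 rising genes of 27 (median -0.08), beside 2.95% of all genes tested. These were YGP1, a secreted glycoprotein of starved cells, by 3.62 ± 0.51 (SE; limma, adjusted p = 0.00627), and SPI1, a cell wall protein of stationary cells, by 2.84 ± 0.49 (SE; limma, adjusted p = 0.0178). FET4, a low-affinity transporter of iron and other metals, was the 1 gene of 17 in iron uptake that rose (2.00, list median 0.46). This count too stands beside 2.95% of all genes tested.

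Other large rises were those of RTC3, YER053C-A and YBR085C-A. RTC3 was at 542, 1939 and 1380 RPM in S1, S2 and B0, against 41.2, 87.8 and 31.9 RPM in C1, C2 and B50, a change of 4.51 ± 0.52 (SE; limma, adjusted p = 0.00274). YER053C-A was at 149, 393 and 112 RPM in S1, S2 and B0, against 5.90, 5.74 and 8.66 RPM in C1, C2 and B50. In both genes S2 was the highest library and no library of one group reached the other. Open reading frames of Ty retrotransposons were also called, among them YBL005W-B with 2946, 4576 and 5005 RPM in S1, S2 and B0, against 636, 359 and 1469 RPM in C1, C2 and B50. Because such elements are present in many near-identical copies, their levels are uncertain.

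In the lists of nitrogen and sulfur metabolism only single genes rose, beside 2.95% of all genes tested. The lists themselves were not tested. SUL2, a sulfate transporter, was the 1 gene of 23 in sulfate assimilation and methionine synthesis that rose, by 1.72 ± 0.35 (SE; limma, adjusted p = 0.0341), with 26.4, 12.9 and 41.7 RPM in S1, S2 and B0, against 6.88, 4.10 and 10.4 RPM in C1, C2 and B50 (list median 0.64). CAR2, ornithine transaminase, was the 1 gene of 12 in arginine metabolism that rose, by 1.51 (list median -0.27). None of 13 genes of ammonium uptake and assimilation (median -0.67), 15 of purine synthesis (median -0.65) and 10 of one-carbon metabolism (median -0.40) passed.

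These lists differed between the libraries. The median change of the purine genes from C1 and C2 was -1.63 in S2 and -0.39 in S1, and it was 0.21 between B0 and B50. ADE17, a bifunctional enzyme of the last steps of purine synthesis, was at 1095, 349 and 917 RPM in S1, S2 and B0, against 1556, 1624 and 1111 RPM in C1, C2 and B50. GDH1, glutamate dehydrogenase, was at 1003, 241 and 665 RPM in S1, S2 and B0, against 2009, 1662 and 491 RPM in C1, C2 and B50. For ADE17 and GDH1 S2 was the lowest library, and neither gene passed (limma, adjusted p = 0.268 and 0.35). GLN1, another gene of ammonium assimilation, did not share this and did not pass (limma, adjusted p = 0.527). It was at 3527, 3571 and 882 RPM in S1, S2 and B0, against 3634, 3253 and 409 RPM in C1, C2 and B50.

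Larger differences between the libraries were seen for genes of the cell cycle. None of 17 tested G1 cyclins and late G1 transcripts passed, although their median change was -1.28, and none of 7 histone genes, with a median of -0.995. The median level of the late G1 genes was 53.4, 7.07 and 48.2 RPM in S1, S2 and B0, against 87.9, 97.6 and 43.1 RPM in C1, C2 and B50. POL30, the sliding clamp of DNA replication, was at 81.3, 6.40 and 76.3 RPM in S1, S2 and B0, against 121.1, 185.7 and 252 RPM in C1, C2 and B50, a change of -2.31 ± 0.81 (SE; limma, adjusted p = 0.189). RNR1, the large subunit of ribonucleotide reductase, was at 209, 6.92 and 21.2 RPM in S1, S2 and B0, against 401, 555 and 43.1 RPM in C1, C2 and B50. The histone gene HTB1 was at 1110, 269 and 1703 RPM in S1, S2 and B0, against 2137, 1762 and 2698 RPM in C1, C2 and B50. S2 was below all 50 mM libraries for these 3 genes, while S1 and B0 lay between it and the 50 mM libraries of their set. The histone gene HTB2 differed, as B0 was its lowest library and S2 lay just above B50. It was at 933, 118.9 and 56.6 RPM in S1, S2 and B0, against 1725, 1960 and 118.5 RPM in C1, C2 and B50. The median level of the histone genes was also lowest in B0, at 126.9 RPM, with 134.8 RPM in S2 and 188.4 RPM in B50.

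Without S1 in the fit, where S2 and B0 stand for the starved cells, 6 late G1 genes and 3 histone genes were called lower, beside 160 of all 5184 genes (3.09%). After subtraction of the other libraries' reads 1 of each list was, beside 12 of all genes (0.231%). The median change of the late G1 genes was -3.35 in S2, -0.76 in S1 and -0.30 between B0 and B50. None of 11 genes of mitosis passed, with a median of 0.02.

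**Figure D4:**
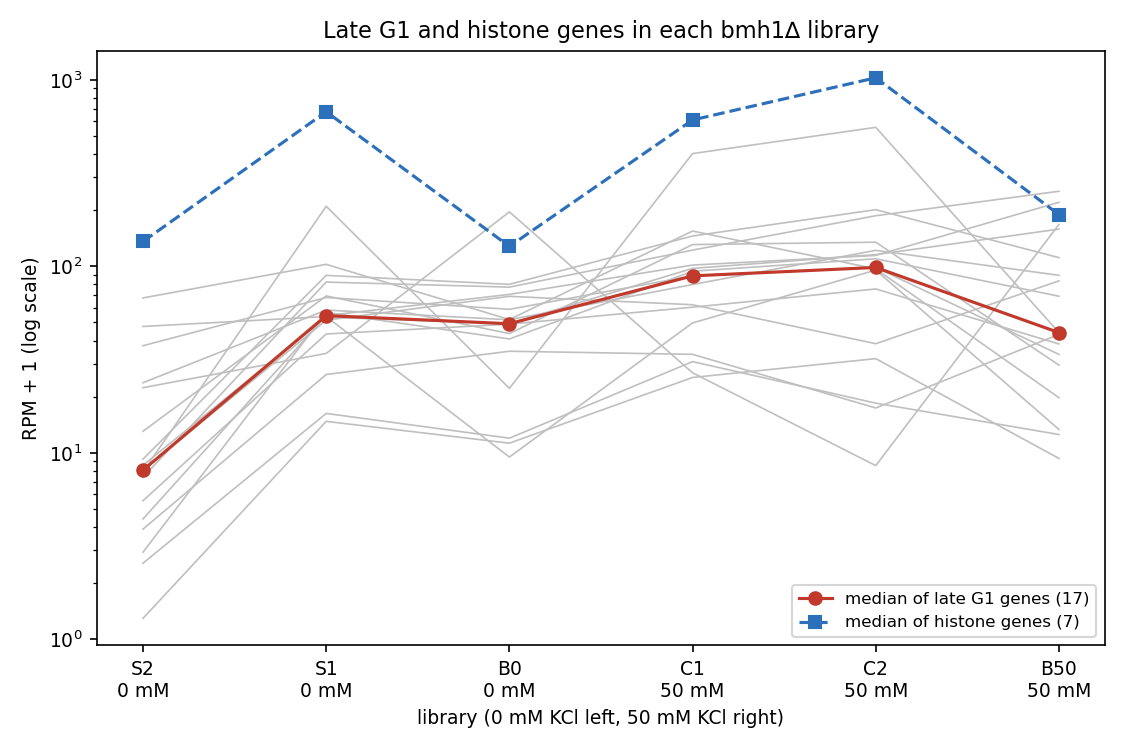
RNA levels (RPM + 1, log scale) of the 17 tested late G1 genes (grey lines), their median (red) and the median of 7 histone genes (blue) in each bmh1∆ library, with 0 mM KCl left and 50 mM KCl right. The late G1 median is lowest in S2, at 7.07 RPM, and between 43.1 and 97.6 RPM in the other libraries.

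Lists of growth and housekeeping genes had no member that passed. The medians were -0.31 for 108 cytosolic ribosomal protein genes, 0.05 for 40 genes of ribosome biogenesis, 0.23 for 40 mitochondrial ribosomal protein genes, 0.30 for 31 proteasome genes and -0.15 for 22 genes of ergosterol synthesis. ACT1, actin, was at 1516, 1269 and 1848 RPM in S1, S2 and B0, against 1189.7, 1203 and 1548 RPM in C1, C2 and B50, and CYC1, cytochrome c, had a change of 0.26. The gene that fell was YLR154C-H, with 19.8, 7.81 and 3.93 RPM in S1, S2 and B0, against 34.0, 40.6 and 30.9 RPM in C1, C2 and B50 (a change of -1.89 ± 0.40 SE; limma, adjusted p = 0.0376). It lies in the repeated ribosomal DNA and has near-identical copies, so its level is uncertain. It was not called without any 1 of the libraries C1, C2, B50 or B0.

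**Figure D5:**
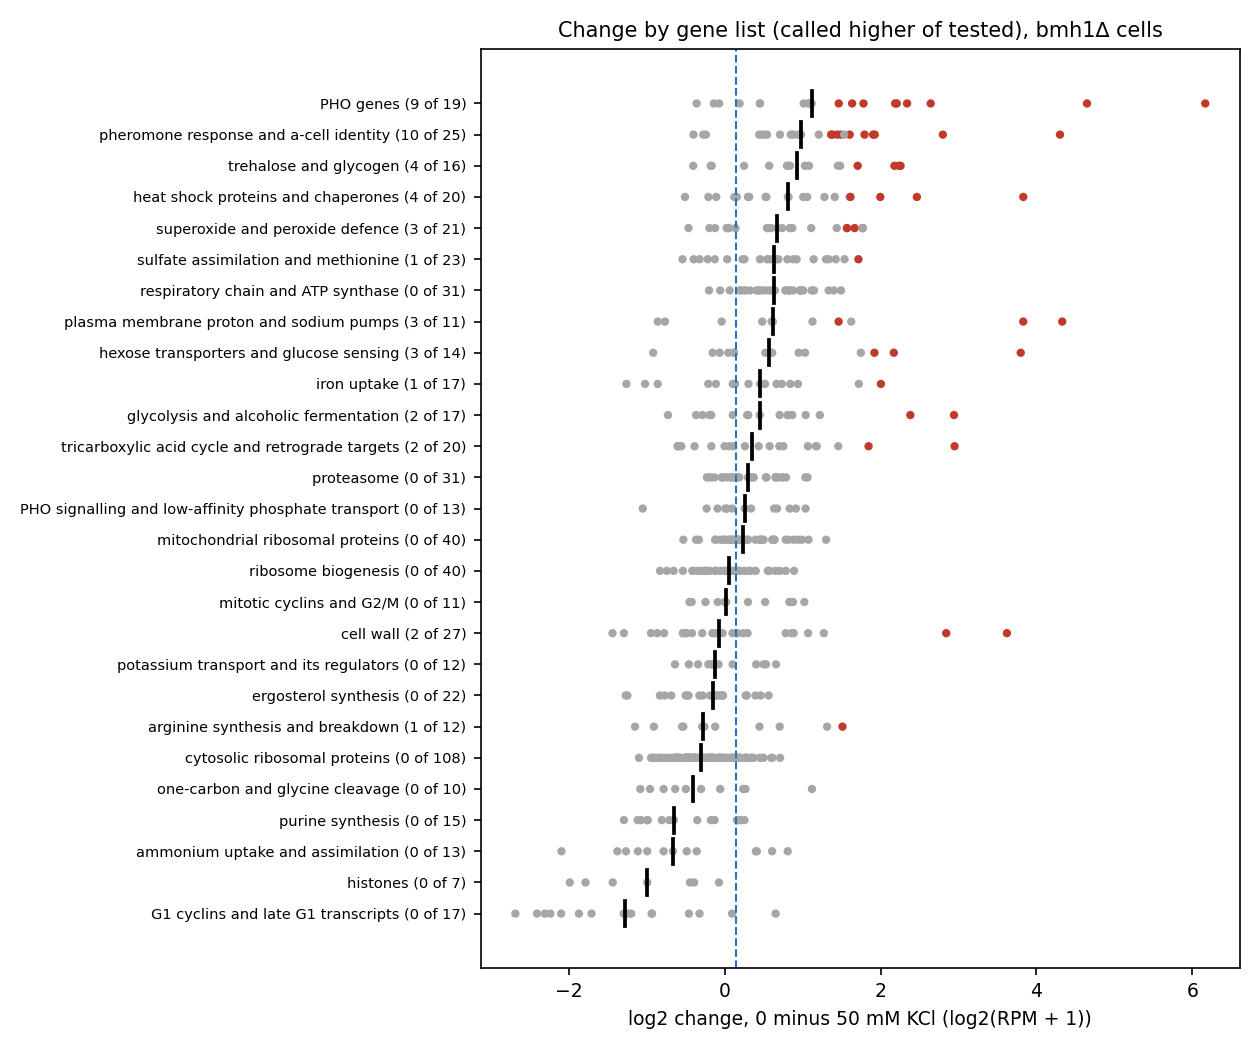
Change in RNA level at 0 minus 50 mM KCl (log2(RPM + 1) scale) of each tested gene in 27 lists, with the called genes in red, the list medians as black bars and the median of all genes tested, 0.14, as a dashed line. The PHO and pheromone lists have the highest medians, 1.12 and 0.98, and the late G1 list has the lowest, -1.28.

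The difference from bmh2∆ cells was tested with all 12 libraries. No gene passed (0 of 5184, limma), although 618 genes had an unadjusted p under 0.05, and the count became 97 without S2 and 9 without the bmh2∆ library D50. In bmh2∆ cells the median change of the 153 genes was 1.60, beside 0.04 over all genes tested. The 3 starved bmh2∆ libraries lay above the 3 at 50 mM KCl for 129 of the 153 genes, against 1034 of all genes (19.9%), and lay wholly below for 0. Since B0 correlated most with bmh2∆ libraries, the response in that strain is no independent support. PHO84 changed by 6.17 in bmh1∆ and 5.17 in bmh2∆ cells, and SPL2 by 4.65 and 4.39. HXT4 changed by 3.80 in bmh1∆ and 0.53 in bmh2∆ cells (bmh2∆ minus bmh1∆ -3.27 ± 0.78 SE; limma, adjusted p = 0.326), and GLC3 by 2.18 and -0.02 (-2.20 ± 0.74 SE; limma, adjusted p = 0.365).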

How the data were processed

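The deposited table gives RPM for 6053 genes in 12 libraries; the authors scaled the tag counts of each library to its total, and every library sums to the same total. Reads had been trimmed, per the file headers. Aligner, genome build and annotation: not given in the sources used here. Gene positions and sequences are from RefSeq R64, which 5523 of 6053 IDs matched. Whether tags were counted by strand is not stated, and PHO84 has an antisense RNA.

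The tests were two-sided, by limma 3.58.1 (trend, robust) in R 4.3.3 on log2(RPM + 1), with the set of libraries (lane 1 or lettered) as a term in the 6 bmh1∆ libraries, and Benjamini-Hochberg adjustment over 5184 genes. The script was tested on simulated data. Change values throughout are on this scale, which understates low genes. Python 3.11.15, NumPy 2.4.6, pandas 2.3.3 and matplotlib 3.10.9 were used for sequences and figures.

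Samples were grouped by their labels. The strain, lists, design and named genes were chosen with earlier results of these data known. Named were PHO84, SPL2, BMH1, BMH2, ACT1, CYC1, the 10 largest changes each way among called genes with a mean of 10 RPM and no overlap, and up to 4 called genes per list (else the 2 most abundant); others named were chosen after their values were seen. Alternatives were other pseudocounts, filters, scalings and library sets, and the reads subtracted from S1 and B0.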

Additional observations from a re-analysis of the deposited data

How the results depend on the processing

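Depth limits low values, since at 6237952 reads (B50) 1 step is 0.160 RPM, and the read depths are estimates. A planned count model on recovered reads was not run, because the smallest value above 0 is 2 steps and the worth of 1 read is inferred. The column names carry no replicate number, but the lettered libraries share letters across KCl concentrations (B in bmh1∆, C, D and E in bmh2∆). The deviations of the bmh2∆ libraries with the same letter correlated at 0.07, 0.25 and -0.29, and a replicate block by letter left the difference from bmh2∆ at 0 genes. This block and the subtraction within lane 1 alone were chosen after seeing the data. The cause of the changes below was not tested.

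Beside 153 genes higher and 1 lower, the alternatives called these numbers of genes higher and lower. The 5 RPM pseudocount gave 3 lower, no filter 0 lower, and a filter of 10 RPM 97 higher. Quantile normalization gave 78 lower and median-of-ratios scaling 23 lower. Without the set term 2 and 0 were called, with 12 libraries 50 and 0 without the set term and 375 and 59 with it. Leaving out 1 library gave 13 to 391 higher and 0 to 160 lower, and lane 1 alone 13 and 0. S2 against C1 and C2 gave 319 and 310, subtraction 65 and 12, subtraction within lane 1 alone 36 and 17, and an adjusted p under 0.10 306 and 20. The difference from bmh2∆ had 0 to 97 genes when 1 library was left out. PHO84 and SPL2 kept their calls in all alternatives with a test.

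Named genes that did not pass changed sign in some alternatives. Leaving out 1 library gave -0.477 to 0.379 for BMH2, -0.243 to 0.469 for CYC1, -0.410 to 0.319 for PHO13, -0.266 to 0.631 for DDP1, -0.318 to 0.0815 for SAT4, -0.718 to 0.253 for BUD4, -0.254 to 0.357 for ATP2 and -0.494 to 0.705 for RPL1A. Lane 1 alone gave 0.379 for BMH2, -0.243 for CYC1, -0.410 for PHO13, -0.266 for DDP1, 0.0815 for SAT4 and -0.494 for RPL1A. S2 against C1 and C2 gave -0.0277 for BMH1, 0.524 for BMH2, -0.124 for CYC1, -0.557 for PHO13, -0.430 for DDP1, 0.0124 for SAT4, -0.0502 for ATP2 and -0.648 for RPL1A. Subtraction gave 0.417 for BMH2 and -0.0169 for PHO13, and within lane 1 alone 0.423 for BMH2, -0.606 for CYC1, -0.601 for PHO13, -0.357 for DDP1, 0.154 for SAT4 and -0.700 for RPL1A. Quantile normalization gave -0.0375 for PHO13, and median-of-ratios scaling -0.160 for PHO13 and -0.124 for ATP2.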
